A study of Mus musculus with 6 samples.

Results

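The genes of the lysosome described here are 45 genes for luminal hydrolases, their helpers and membrane proteins, taken by name out of 24732 gene symbols with FPKM values in RNA-seq of a mouse culture of female germline stem cells (FGSCs). By role they were 10 proteases with their protective protein, 12 glycosidases, 5 sulfatases, 8 genes for lipid hydrolysis and lipid handling, 7 membrane proteins and 3 others, namely the acid phosphatase Acp2, progranulin (Grn) and the transcription factor Tfeb. Per the study's methods, the FGSC line came from ovaries of neonatal Ddx4-Cre; mT/mG mice, in which Cre is driven by the germ cell gene Ddx4. The labels gave the strain of both groups as C57BL/6 and their passage number as above 20, and placed both on inactivated STO feeder cells, an embryonic fibroblast line. The groups were 3 control samples and 3 shCTCF samples, in which a lentivirus carrying 1 short hairpin RNA against Ctcf was followed by puromycin selection. CTCF binds DNA and anchors chromatin loops and domain borders, and the study asked what its loss does to gene expression in FGSCs. The labels did not say what the control cells received, nor whether the samples of a group came from separate cultures, so that p-values measure the spread between these samples, which may be technical.

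Lysosomes are acidic organelles in which proteins, glycans, lipids and nucleic acids are broken down. Most of their hydrolases are made in the endoplasmic reticulum, tagged with mannose 6-phosphate in the Golgi and carried to the lysosome by receptors, while heavily glycosylated membrane proteins line its limiting membrane and a proton pump, the V-ATPase, keeps the lumen acidic. Many of these genes carry a CACGTG-type element in their promoters and are switched on together by TFEB and its relatives TFE3 and MITF, which mTORC1 at the lysosome surface holds in the cytoplasm when nutrients are plentiful.

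Ctcf itself was at 58.2, 56.1 and 53.5 FPKM in the controls and at 0.740, 0.550 and 0.629 FPKM in the shCTCF samples. FPKM are fragments scaled to transcript length and to the number of mapped fragments. The group mean was 98.9% lower, 0.640 ± 0.0956 against 55.9 ± 2.34 FPKM (SD, n = 3), and limma on log2(FPKM + 1) gave a log2 fold change of -5.12 ± 0.09 (SE) with a Benjamini-Hochberg adjusted p of 1.1e-08. In the deposited counts Ctcf had 0 in every sample, the controls included, so that its fall rests on FPKM alone. The libraries held between 1686052 counts (control replicate 2) and 7044272 counts, so that 3 counts corresponded to 0.426 to 1.78 CPM, counts scaled to the library total. Between 9639 and 9937 genes reached 1 FPKM in a sample. On the label of the cells, the summed FPKM of 8 germline markers was 19.5 to 19.8 in the controls and 24.9 to 26.2 in shCTCF. The sum was higher through Ifitm3, which went from 0.737 ± 0.646 to 10.8 ± 0.327 FPKM. Etv5, the largest of the 8 in the controls, fell from 17.3 ± 0.569 to 14.2 ± 0.194 FPKM. Zbtb16 went from 1.56 ± 0.422 to 0.288 ± 0.00602 FPKM (SD, n = 3). The other 5 (Ddx4, Dazl, Pou5f1, Dppa3 and Gfra1) were under 1 FPKM in every sample. By contrast, all 7 pan-leukocyte markers reached a mean of 1 FPKM in both groups, with a sum of 703 to 744 FPKM in the controls and 1110 to 1153 FPKM in shCTCF. Of 10 mast cell markers 5 reached 1 FPKM in the controls and 6 in shCTCF, led by Kit and Gata2, with sums of 1330 to 1384 and 1500 to 1569 FPKM, and Fcer1a was listed at 0 throughout. The name FGSC is therefore used here as the labels give it, and not as a cell type shown by its markers.

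After CTCF knockdown, lysosomal genes were mostly higher. Of the 45 genes 42 passed the filter of a mean of 1 FPKM, and of these 33 rose, 5 fell and 4 did not pass the test (limma, adjusted p under 0.05). Over all 9976 genes tested most were also called between the groups (73.0%), but in the other balance: 28.8% rose and 44.2% fell. That balance depends on scaling, since 3482 genes rose and 3606 fell with each sample scaled to the same median, and 35 of the lysosomal genes rose and 2 fell with the same scaling. A rise of at least 2-fold in the group means was found for 21 lysosomal genes and a fall of that size for 0, compared with 13.3% and 18.4% of all genes. The 45 genes and the lists below were chosen with earlier results of these data known, so that such comparisons are a description and not a test. The median ratio of shCTCF to control was 2.01 over the 42 genes and 0.867 over all genes tested. In 35 of the 42 genes the lowest shCTCF sample lay above the highest control, and in the 5 that fell the highest shCTCF sample lay below the lowest control. Over all genes tested, 30.8% had all shCTCF samples above all controls and 45.8% had them below. Together the 45 genes took 0.384% to 0.388% of the summed FPKM of all genes in the controls and 1.20% to 1.26% in shCTCF, while the sum over all genes was alike, 439021 to 456588 FPKM in the controls and 452761 to 455055 FPKM in shCTCF. In bulk samples fewer cells of a type and less RNA per cell cannot be told apart, nor can more cells and more RNA per cell.

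**Figure D1:**
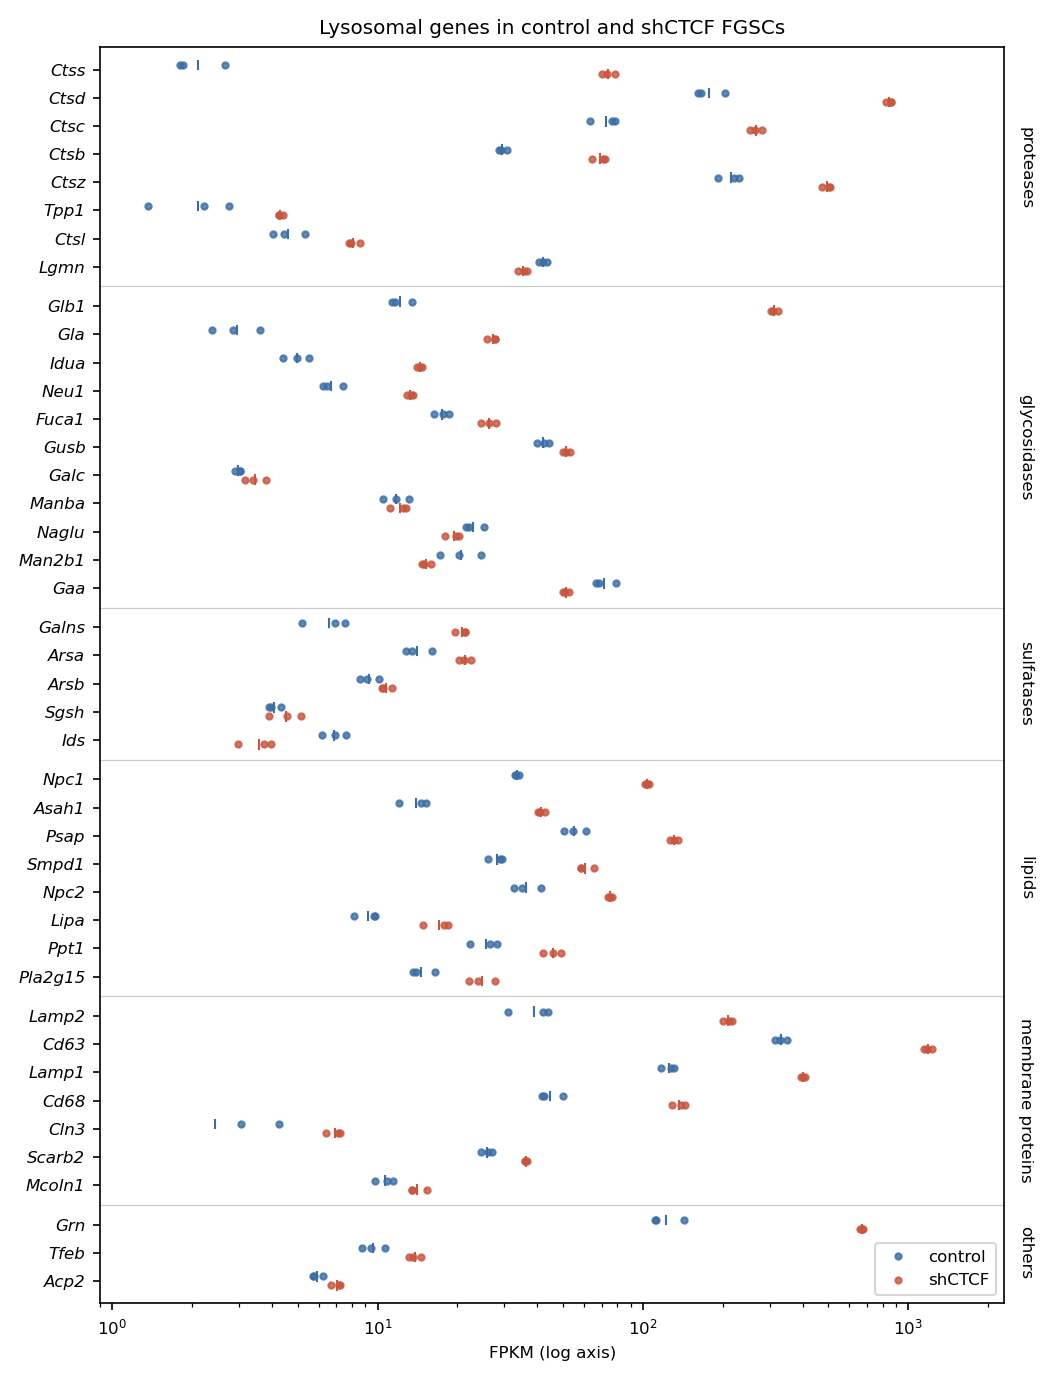
FPKM of the 42 lysosomal genes tested, on a log axis, by role and then by ratio. Points are samples (3 control, 3 shCTCF), short vertical lines are group means, and the single value of 0 (Cln3 in control replicate 2) is not drawn. Most shCTCF points lie to the right of the controls, by the widest gap for Ctss and Glb1, while Lgmn, Naglu, Man2b1, Gaa and Ids lie to the left.

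The count table gave a second reading of the same libraries. Here 32 of the 45 genes could be tested with edgeR, and 26 rose and 1 (Ids) fell. Of all 7341 genes tested on counts 69.1% were called, 34.8% higher and 34.3% lower. The median log2 fold change was 1.16 over the 32 genes and -0.02 over all genes. Without TMM scaling, on library size only, 23 rose and 4 fell. The calls on both tables coincided for 24 genes, all in the same direction, and no gene had opposite calls. The other 13 genes held too few counts to test, 10 of them with FPKM above its filter. In that table a fragment that overlapped more than 1 transcript accession was not assigned. Ctss, Idua, Lipa and Acp2, for example, had 0 counts in every sample and a measurable FPKM, and for those genes the FPKM value stands alone. Among the 25 genes with 1 accession that were tested on both tables, the ratio of FPKM means and the edgeR fold differed by at most 1.22-fold.

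**Figure D2:**
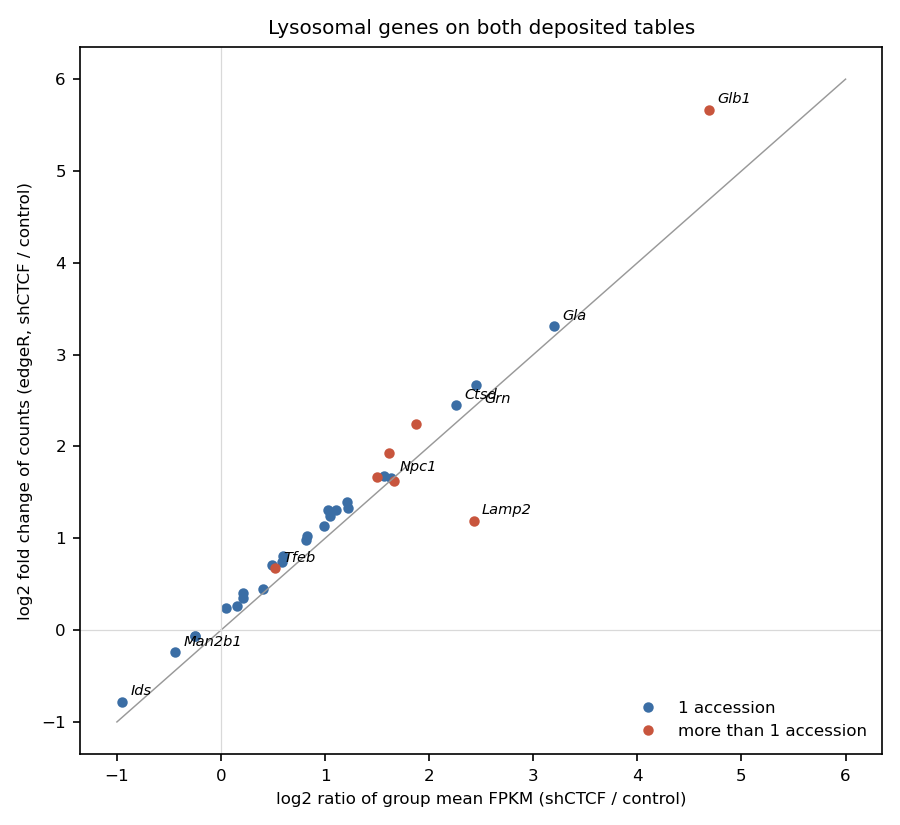
The 32 lysosomal genes tested on both deposited tables. The x axis is the log2 ratio of the group mean FPKM and the y axis the edgeR log2 fold change of counts (shCTCF against control), the diagonal marks equal values, and colour separates genes with 1 transcript accession from those with more. The genes follow the diagonal, except Lamp2 below it (2.43 against 1.19) and Glb1 above it, which had 1 or 2 counts in each control.

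Among the proteases, 7 of the 8 genes tested rose and 1 fell, beside 28.8% and 44.2% of all genes. A rise of at least 2-fold was found for 6, beside 13.3% of all genes. The largest ratio of all 42 genes was that of Ctss, cathepsin S, a cysteine protease that trims the invariant chain in antigen-presenting cells. Ctss (chr3:95330708-95360327, mm9, plus strand) was at 1.85, 2.66 and 1.79 FPKM in the controls and at 78.5, 70.1 and 73.0 FPKM in shCTCF. It went from near the filter to the level of Ctsb in every knockdown sample, 35.2-fold by the group means, with a log2 fold change of 4.60 ± 0.12 (SE) and a limma adjusted p of 7.28e-08. Ctsd, the aspartic protease cathepsin D, was already abundant in the controls, at 161, 205 and 166 FPKM, and was at 862, 857 and 824 FPKM in shCTCF. All its shCTCF samples lay above 800 FPKM and the rise was 4.79-fold (adjusted p = 5.75e-07), with a fold of 5.45 on counts (edgeR adjusted p = 1.6e-10).

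Ctsc, cathepsin C, the dipeptidyl peptidase that activates granule serine proteases, was at 78.7, 63.1 and 76.1 FPKM in the controls and at 280, 264 and 254 FPKM in shCTCF. The groups did not overlap and the ratio was 3.66 (limma adjusted p = 1.33e-06). Ctsb, the cysteine protease cathepsin B, was at 28.6, 30.8 and 29.1 FPKM in the controls and at 71.8, 64.1 and 70.6 FPKM in shCTCF, a ratio of 2.33 (adjusted p = 3.52e-06). Ctsz, a carboxypeptidase and the second most abundant of the 45 genes in the controls, was at 192, 220 and 230 FPKM there and at 503, 508 and 473 FPKM in shCTCF, a ratio of 2.31 (adjusted p = 5.21e-06). Tpp1, tripeptidyl peptidase 1, was low in both groups, at 1.36, 2.75 and 2.23 FPKM in the controls and at 4.27, 4.39 and 4.26 FPKM in shCTCF. Its controls spread widely while the shCTCF samples were nearly equal, and the ratio was 2.04 (adjusted p = 0.00352). Ctsl, cathepsin L, rose by a ratio of 1.76.

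The protease that fell was Lgmn, legumain, an asparaginyl endopeptidase that matures cathepsins, with a mean of 42.0 ± 1.41 FPKM in the controls and 35.4 ± 1.39 FPKM in shCTCF (SD, n = 3). The fall was small, with a ratio of 0.843 (limma adjusted p = 0.0114), and edgeR made no call on counts (adjusted p = 0.461). A pair of genes in this group stayed under the filter. Ctsa, the protective protein that stabilises beta-galactosidase and neuraminidase, was at 0.619, 0.814 and 0.829 FPKM in the controls and at most 0.135 FPKM in shCTCF, and its exons overlap those of Neurl2 and Pltp. Ctsh, cathepsin H, was listed at 0 in 5 samples and at 0.176 FPKM in shCTCF replicate 3.

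The glycosidases, which take sugars from glycoproteins, glycolipids and glycosaminoglycans, were mixed: of 11 tested 6 rose, 3 fell and 2 did not pass the test, with a median ratio of 1.22. Of all genes tested 28.8% rose and 44.2% fell, with a median ratio of 0.867. A pair of glycosidases stood apart. Glb1, acid beta-galactosidase (chr9:114310196-114383497, mm9, plus strand), whose activity at raised pH is used as a stain for senescent cells, was at 11.3, 11.6 and 13.5 FPKM in the controls and at 323, 310 and 303 FPKM in shCTCF. Every knockdown sample was above 300 FPKM, 25.7-fold by the group means, with a log2 fold change of 4.58 ± 0.08 (SE) and a limma adjusted p of 1.17e-08. Glb1 had few counts, with 2, 1 and 1 in the control libraries and 78, 71 and 84 after knockdown, and the exons of its accessions overlap each other and those of Tmppe. With every control library under the floor of 3 counts, the counts give the direction, higher in all shCTCF samples (edgeR adjusted p = 4.52e-08), and little on the size.

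Gla, alpha-galactosidase A (chrX:131122708-131135544, mm9, minus strand), the enzyme missing in Fabry disease, was at 2.85, 2.38 and 3.61 FPKM in the controls and at 27.8, 27.7 and 25.9 FPKM in shCTCF. It has 1 accession and its counts moved as its FPKM did, from 110, 24 and 136 to 923, 859 and 993. The ratio was 9.21 on FPKM (limma adjusted p = 6.79e-07) and the fold 9.94 on counts (edgeR adjusted p = 2.03e-10). Idua, alpha-L-iduronidase, which degrades heparan and dermatan sulfate, was at 4.39, 5.52 and 4.99 FPKM in the controls and at 14.7, 14.4 and 14.1 FPKM in shCTCF, a ratio of 2.91 (adjusted p = 7.28e-06). Its exons overlap those of Dgkq and Slc26a1 and it had 0 counts, so that its rise rests on FPKM alone.

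The other glycosidases moved less. Neu1 (neuraminidase 1), Fuca1 (alpha-L-fucosidase) and Gusb (beta-glucuronidase) rose, with ratios of 1.98, 1.50 and 1.22. Gaa, the acid alpha-glucosidase that degrades glycogen and is lost in Pompe disease, fell from 71.3 ± 6.98 to 51.2 ± 1.40 FPKM (SD, n = 3), a ratio of 0.718 (limma adjusted p = 0.00115). Gaa held at most 4 counts in any sample and was not tested on counts, so that its fall rests on FPKM alone. Naglu (alpha-N-acetylglucosaminidase) and Man2b1 (alpha-mannosidase) fell with ratios of 0.843 and 0.736 and limma adjusted p-values of 0.0437 and 0.0186, and neither was called by edgeR on counts (adjusted p of 0.561 and 0.0534). Manba (beta-mannosidase, ratio 1.03) and Galc (galactosylceramidase, ratio 1.16) were not called on FPKM, and both passed on counts with folds of 1.18 and 1.28 (edgeR adjusted p of 0.0498 and 0.0281), calls that were lost without TMM scaling (adjusted p of 0.554 and 0.216), with the replicate block (0.0764 and 0.0609) and in 3 of the fits that leave out a sample. Hexa, the alpha chain of beta-hexosaminidase, was at or under 0.140 FPKM in every sample, with counts of 3, 0 and 4 in the controls and 0 in all shCTCF samples.

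Among the 5 sulfatases, which remove sulfate groups and which share a catalytic formylglycine, 2 rose, 1 fell and 2 did not pass the test. Of all genes tested on FPKM 28.8% rose and 44.2% fell. Galns, which acts on keratan and chondroitin sulfate, was at 5.18, 7.54 and 6.89 FPKM in the controls and at 21.3, 21.3 and 19.6 FPKM in shCTCF. All knockdown samples lay above all controls, with a ratio of 3.17 (limma adjusted p = 1.83e-05), and its low counts gave a fold of 3.08 (edgeR adjusted p = 0.000445). Arsa, arylsulfatase A, rose with a ratio of 1.51. Ids, iduronate 2-sulfatase, was the gene with the lowest ratio of the 42: its FPKM were 7.57, 6.18 and 6.89 in the controls and 3.72, 3.98 and 2.99 in shCTCF. The ratio was 0.518 (limma adjusted p = 0.00059), and Ids was the only one of the 32 genes that edgeR called lower on counts (fold 0.583, adjusted p = 0.000292). Thus Idua rose and Ids fell, although both enzymes act in turn on the same glycosaminoglycans. Arsb (ratio 1.16) and Sgsh (ratio 1.11) were not called on FPKM, and Arsb passed on counts (fold 1.32, edgeR adjusted p = 0.00394) except on library size only (adjusted p = 0.0552).

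The 5 lower calls on FPKM depended in part on scaling. Over all genes tested, the median log2 fold change was -0.17 as deposited and -0.01 with each sample scaled to the same median, and with that scaling or with quantile normalization 2 of the 5 calls, Gaa and Ids, were left. Of these 2, Ids was also called lower on counts, and Gaa could not be tested there. Naglu was no longer called on any of the 2-against-3 fits except the one without control replicate 3.

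All 8 genes for lipid hydrolysis and lipid handling rose, 5 of them at least 2-fold, beside 28.8% and 13.3% of all genes. The median ratio of the 8 was 2.11. Npc1, the membrane protein that passes cholesterol out of the lysosome, was at 34.1, 33.1 and 33.1 FPKM in the controls and at 104, 106 and 102 FPKM in shCTCF. The spread within each group was a few percent of the gap, with a log2 fold change of 1.61 ± 0.06 (SE, limma adjusted p = 2.97e-07) and a ratio of 3.10, and its exons overlap those of Rmc1. Npc2, the soluble cholesterol carrier that hands its cargo to NPC1, was at 32.7, 41.2 and 34.9 FPKM in the controls and at 76.6, 73.6 and 74.9 FPKM in shCTCF, a ratio of 2.07 (adjusted p = 2.5e-05).

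Sphingolipid enzymes moved in the same direction. Asah1, acid ceramidase, was at 15.2, 12.1 and 14.6 FPKM in the controls and at 42.9, 40.1 and 41.0 FPKM in shCTCF, a ratio of 2.96 (limma adjusted p = 4.62e-06). Smpd1, acid sphingomyelinase, which makes the ceramide that ASAH1 cleaves, was at 26.0, 29.5 and 29.0 FPKM in the controls and at 65.2, 58.5 and 58.4 FPKM in shCTCF, a ratio of 2.16 (adjusted p = 1.02e-05). Psap encodes prosaposin, the precursor of the saposins that present sphingolipids to their enzymes. It was at 54.3, 60.9 and 50.3 FPKM in the controls and at 136, 131 and 126 FPKM in shCTCF, a ratio of 2.38 (adjusted p = 5.56e-06), with at most 2 counts in any sample because its 6 accessions overlap. For each of these 3 genes the groups lay well apart. Lipa (lysosomal acid lipase), Ppt1 (palmitoyl-protein thioesterase 1) and Pla2g15 (a lysosomal phospholipase A2) rose with ratios between 1.68 and 1.85.

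The membrane proteins had the highest median FPKM ratio of the role groups, 3.07. All 7 rose, 5 of them at least 2-fold, beside 28.8% and 13.3% of all genes. On counts, where 5 of the 7 could be tested, their median log2 fold change of 1.19 was below that of the proteases (1.33) and the lipid genes (1.31). Lamp1 and Lamp2 are the main glycoproteins of the lysosomal membrane, and LAMP2A, one of the LAMP2 forms, is the receptor of chaperone-mediated autophagy. Lamp1 was at 131, 117 and 128 FPKM in the controls and at 393, 408 and 401 FPKM in shCTCF, a ratio of 3.20 with a log2 fold change of 1.67 ± 0.06 (SE, limma adjusted p = 3.29e-07). Lamp2 (chrX:35752824-35809637, mm9, minus strand) was at 43.8, 30.9 and 42.0 FPKM in the controls and at 216, 201 and 211 FPKM in shCTCF, a ratio of 5.38 (adjusted p = 1.73e-06). Both pairs of groups were far apart. Lamp1 held at most 2 counts in any sample and was not tested on counts, so that its rise rests on FPKM alone. The counts of Lamp2 gave a smaller fold of 2.28 (edgeR adjusted p = 0.00243). Control replicate 2 held 27 counts of Lamp2 against 527 and 515 in the other controls. These are raw counts, from libraries of 1686052 counts against 6563978 and 7044272. Without control replicate 2 the log2 fold change on counts was 0.92 in place of 1.19.

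Cd63, a tetraspanin of late endosomes, lysosomes and secretory granules, was the most abundant of the 45 genes in the controls, at 328, 315 and 349 FPKM, and reached 1230, 1173 and 1149 FPKM in shCTCF. The groups were far apart and the ratio was 3.58 (limma adjusted p = 1.88e-07). With 1 to 4 counts a sample Cd63 was not tested on counts, so that its rise rests on FPKM alone. Cd68, a LAMP family glycoprotein known best from macrophages, was at 41.8, 50.1 and 42.3 FPKM in the controls and at 143, 139 and 129 FPKM in shCTCF, a ratio of 3.07 (adjusted p = 2.19e-06) with a fold of 3.82 on counts (edgeR adjusted p = 8.13e-09). Mcoln1, the TRPML1 calcium channel, and Scarb2, the LIMP-2 receptor that carries beta-glucocerebrosidase, rose with ratios of 1.32 and 1.40.

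Cln3, a membrane protein mutated in juvenile Batten disease, was the least certain of the genes past 2-fold. Its FPKM were 4.26, 0 and 3.05 in the controls and 6.40, 7.21 and 7.08 in shCTCF. The 0 was in control replicate 2, the smallest library, which held 5 counts of Cln3, so that the value is listed at 0 and is not an absence of reads. The limma adjusted p was 0.0374, it went above 0.05 with smaller pseudocounts (0.102 and 0.154), without a filter (0.0766) and without any one shCTCF sample (0.0864 to 0.0921), and the log2 fold change was 0.77 without control replicate 2 in place of 1.51. On counts the fold was 3.18 (edgeR adjusted p = 0.000151), and the exons of Cln3 overlap those of Apobr.

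Of the 3 other genes all rose, beside 28.8% of all genes tested. Grn, progranulin, a secreted and lysosomal glycoprotein that is cut into granulins and whose loss causes frontotemporal dementia or a lysosomal storage disease, was at 112, 143 and 111 FPKM in the controls and at 676, 670 and 657 FPKM in shCTCF. It became the third most abundant of the 45 genes after Cd63 and Ctsd, with a ratio of 5.48 (limma adjusted p = 5.16e-07) and counts of 2994, 966 and 3187 against 16509, 14907 and 18575 (edgeR fold 6.38, adjusted p = 1.36e-10). Tfeb, which encodes a known regulator of many lysosomal genes, was at 9.48, 10.7 and 8.76 FPKM in the controls and at 13.2, 14.6 and 13.6 FPKM in shCTCF. This was a separated but modest rise, with a ratio of 1.43 (limma adjusted p = 0.00225), and its 4 to 14 counts a sample gave no call on counts (fold 1.59, edgeR adjusted p = 0.205). Acp2, acid phosphatase 2, had a ratio of 1.19 with an adjusted p of 0.049, which went above 0.05 under several alternatives.

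For some genes the rise went with another split among transcript accessions. These per-accession FPKM are Cufflinks estimates of overlapping transcripts, and they are given without a test. Of the 18 genes with more than 1 accession in the FPKM table, 9 had FPKM on only 1 of them. Lamp2 accession NM_001017959 went from 17.9, 24.9 and 17.9 FPKM to 149, 159 and 163 FPKM, and from 54.8% ± 22.5 to 75.2% ± 5.55 of the gene's FPKM (SD, n = 3). NM_010685, the other accession found in every sample, went from 25.9, 5.95 and 24.1 FPKM to 39.1, 41.9 and 47.3 FPKM. The count table saw almost only NM_010685 (515, 27 and 506 counts against 760, 661 and 891) and held 0 counts of NM_001017959, so that the smaller fold on counts describes mainly one accession.

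Glb1 was higher on both accessions with FPKM above 0, the coding NM_009752 from 4.15, 3.94 and 7.78 FPKM to 230, 244 and 223 FPKM, and the noncoding NR_108102 from 7.14, 7.70 and 5.71 FPKM to 93.0, 65.6 and 80.2 FPKM. The other noncoding accession, NR_108101, was listed at 0 FPKM throughout but held 20, 9 and 11 counts in shCTCF and 0 in every control. The share of the coding accession was 42.8% ± 13.0 in the controls and 74.5% ± 3.91 in shCTCF (SD, n = 3). Ctsc was split in the controls, with NM_001311790 at 21.9, 12.9 and 21.5 FPKM and NM_009982 at 56.7, 50.2 and 54.7 FPKM, while in shCTCF NM_001311790 was listed at 0 and NM_009982 held all of its FPKM. The count table did not show that loss: the 3 control libraries held 878, 117 and 907 counts of NM_001311790 and the shCTCF libraries 817, 534 and 704. The listed 0 is therefore an estimate and not an absence of fragments. Ctss was carried by NM_021281 alone in the controls. In shCTCF it held 89.9% ± 8.79 of the FPKM (SD, n = 3), and NM_001267695 was at 11.6 and 11.4 FPKM in replicates 1 and 3 and listed at 0 in replicate 2.

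**Figure D3:**
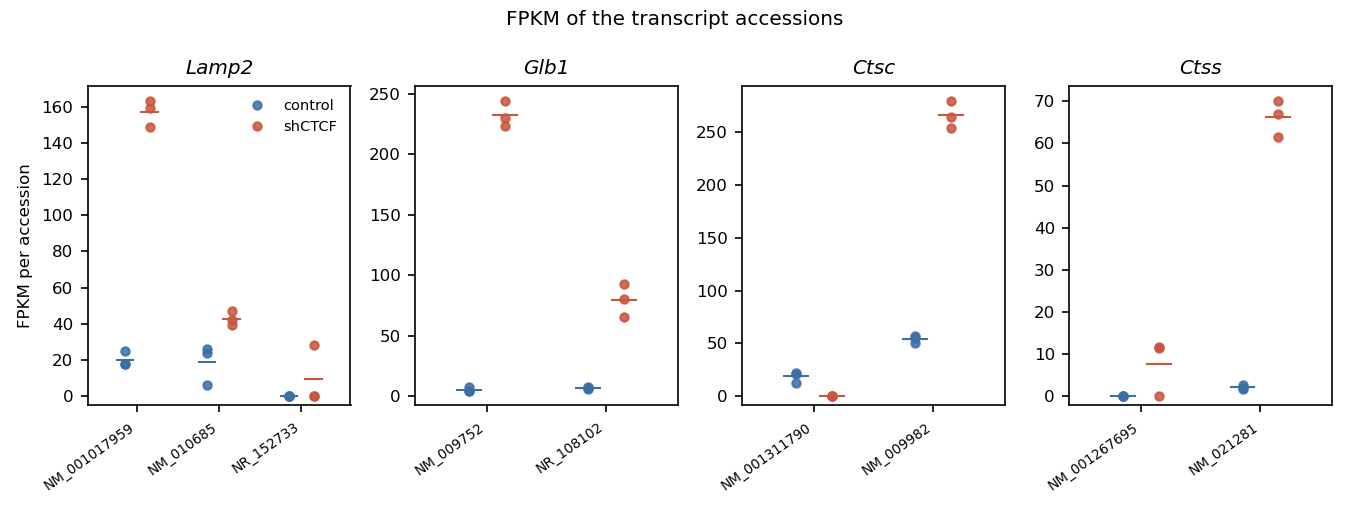
FPKM per transcript accession of Lamp2, Glb1, Ctsc and Ctss, for accessions above 0 in at least 1 sample. Points are samples and short lines group means, with separate linear axes. In Lamp2 the NM_001017959 accession gains most, in Glb1 both accessions gain, and in Ctsc one accession is listed at 0 in all 3 shCTCF samples.

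Genes of the lysosome outside the 45 also moved, though less evenly. Of 143 further genes in 7 lists 125 were tested, of which 66 rose and 26 fell, 34 and 6 of them by at least 2-fold, with a median ratio of 1.32. Over all genes tested 28.8% rose and 44.2% fell, 13.3% and 18.4% by at least 2-fold. On counts 49 rose and 12 fell of the 82 that could be tested, beside 34.8% and 34.3% of all genes. The V-ATPase subunits, which build the proton pump, had the highest median ratio of these lists, 1.74, and 12 of 16 rose and 2 fell. Among the subunits above the FPKM filter the highest ratio was that of Atp6v0e, a small membrane subunit, which rose from 68.9 ± 11 to 219 ± 7.94 FPKM, and the lowest ratio was that of Atp6v1a, the catalytic subunit, which fell from 30.0 ± 3.68 to 17.9 ± 0.88 FPKM (SD, n = 3). Atp6v1a had 0 counts in every sample, so that its fall rests on FPKM alone. Atp6v0d2 missed the FPKM filter but was called higher on counts, which were 1, 0 and 0 in the controls and 65, 46 and 63 in shCTCF (edgeR adjusted p = 2.02e-07). Of the other hydrolases and activators 11 of 20 rose and 4 fell (median ratio 1.73). Ctso, cathepsin O, rose from 1.20 ± 0.163 to 18.3 ± 0.417 FPKM (limma adjusted p = 1.39e-07) with a fold of 15.0 on counts, and Dnase2a, the acid DNase, fell from 12.8 ± 1.20 to 6.60 ± 0.90 FPKM.

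Of the 9 genes of mannose 6-phosphate targeting, which route hydrolases to the lysosome, 2 rose and 6 fell, beside 28.8% and 44.2% of all genes tested, with a median ratio of 0.784 against 0.867 over all genes. On counts 1 rose and 2 fell of 5 tested. Gnptg, a subunit of the tagging enzyme, rose from 12.8 ± 1.13 to 34.9 ± 4.61 FPKM, and Gga3, an adaptor that sorts the receptors at the Golgi, fell from 12.5 ± 2.14 to 5.26 ± 0.401 FPKM (SD, n = 3). Gnptg had 0 counts in every sample, so that its rise rests on FPKM alone. Of the receptors that carry the tagged hydrolases, the cation-dependent M6pr was at 62.2 ± 2.76 and 61.3 ± 3.62 FPKM and was not called (limma adjusted p = 0.794). The cation-independent Igf2r was low but rose from 1.13 ± 0.281 to 2.95 ± 0.214 FPKM (adjusted p = 0.000492), with a fold of 3.05 on counts (edgeR adjusted p = 4.57e-07). Of the other membrane proteins and transporters 13 of 24 rose and 6 fell (median ratio 1.47). The highest ratio there was that of Laptm4a, which went from 36.7 ± 3.87 to 139 ± 7.64 FPKM, while the potassium channel gene Tmem175 went from 6.71 ± 0.461 FPKM to being listed at 0 in all shCTCF samples. Tmem175 had 0 counts in every sample, the controls included, so that its fall rests on FPKM alone.

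A further list held the TFEB relatives Tfe3 and Mitf, Zkscan3, and genes of mTORC1 control at the lysosome. Of 20 tested 6 rose, 5 fell and 9 were not called, with a median ratio of 0.994. Of all genes 28.8% rose and 44.2% fell, so that the share that rose was near the background. Rragd, a Rag GTPase that is itself a known TFEB target, rose from 2.00 ± 0.285 to 7.58 ± 0.143 FPKM, and Lamtor4, a subunit of the Ragulator scaffold, fell from 37.2 ± 6.48 to 14.0 ± 0.874 FPKM (SD, n = 3). Of the close relatives of Tfeb, Tfe3 rose from 1.47 ± 0.316 to 2.88 ± 0.387 FPKM (limma adjusted p = 0.00355), and Mitf was at 17.3 ± 3.18 and 16.5 ± 1.02 FPKM and was not called (adjusted p = 0.748). Among autophagy genes 16 of 21 rose and 1 fell, with a median ratio of 1.50. Sqstm1, the p62 receptor that links ubiquitinated cargo to the autophagosome, rose from 399 ± 44.7 to 1424 ± 53.5 FPKM. Becn1, a subunit of the lipid kinase complex that starts autophagosomes, fell from 29.4 ± 4.74 to 17.7 ± 0.965 FPKM on FPKM but was not called on counts (fold 0.821, edgeR adjusted p = 0.463). Of 15 genes for lysosome positioning and fusion 6 rose and 2 fell (28.8% and 44.2% over all genes), with a median ratio of 1.03, Vps18 having the highest called ratio (3.93 to 10.2 FPKM) and Vps16 the lowest (23.9 to 12.3 FPKM), although both encode core subunits of the same tethering complexes. Vps16 had 0 counts in every sample, so that its fall rests on FPKM alone. M6pr, Igf2r, Atp6v0d2, Tfe3 and Mitf were named after their values were seen.

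Promoters of these genes were searched because TFEB, a known regulator of many lysosomal genes, binds CACGTG-type elements. Many lysosomal genes are known to carry such an element, so that its share here describes the gene list and not the knockdown. Which of the 45 genes TFEB acts on in these cells was not tested. Windows of 250 bases before to 50 after the start site (RefSeq, GRCm38.p6) were found for 40 of the 45 genes, and both strands were read. The 8-letter TCACGTGA was in 5 of 40 genes (12.5%) against 1.12% of 27025 genes with a window, TCACGTG in 12 (30.0%) against 4.29%, and the bare CACGTG in 13 (32.5%) against 8.09%. Each longer word contains the shorter ones, so that these counts overlap. Of the 11 tested genes with TCACGTG 7 rose, compared with 22 of the 27 without it, and Lgmn, Gaa and Naglu, which were called lower on FPKM, hold it. Lgmn and Naglu were not called on counts, nor on FPKM with each sample scaled to the same median. For the stricter TCACGTGA, 4 of 4 tested genes with it rose, compared with 25 of 34 without it. The differences between these shares were not tested. One form of the CTCF motif core, AGNNGGCGC, was in 6 of 40 genes (15.0%), namely Ctsz, Gaa, Fuca1, Lipa, Scarb2 and Tfeb, against 8.19% of all genes. No binding was measured in these files, and a match is a string of letters and not a bound site.

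Upstream windows are shown for 6 genes with large rises, to set those with the E-box beside those without it. These genes were picked and are not the 6 largest rises. Lamp2, Ctsc and Cd63 rose more than Lamp1 by ratio (5.38, 3.66 and 3.58 against 3.20). Lamp2, Ctsc and Cd63 hold no TCACGTG in their windows, which are not shown. Each runs from 250 bases upstream to the last base before the start site, 5′ to 3′ on the gene's strand, from GRCm38.p6. In Gla, Ctsd, Lamp1 and Glb1 the capitals mark TCACGTG or its reverse complement, in Ctss they mark GAAANNGAA, the core of an interferon-stimulated response element, and in Grn no searched motif was found. The windows are chrX:134601006-134601255 for Gla (minus strand), chr7:142387828-142388077 for Ctsd (minus strand), chr8:13158911-13159160 for Lamp1 (plus strand), chr9:114400828-114401077 for Glb1 (plus strand), chr3:95526536-95526785 for Ctss (plus strand) and chr11:102430257-102430506 for Grn (plus strand).
Gla: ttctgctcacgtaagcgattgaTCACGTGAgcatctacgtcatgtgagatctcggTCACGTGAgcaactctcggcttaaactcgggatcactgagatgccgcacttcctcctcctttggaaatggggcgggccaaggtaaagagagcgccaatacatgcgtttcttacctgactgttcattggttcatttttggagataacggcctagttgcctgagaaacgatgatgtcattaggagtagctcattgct
Ctsd: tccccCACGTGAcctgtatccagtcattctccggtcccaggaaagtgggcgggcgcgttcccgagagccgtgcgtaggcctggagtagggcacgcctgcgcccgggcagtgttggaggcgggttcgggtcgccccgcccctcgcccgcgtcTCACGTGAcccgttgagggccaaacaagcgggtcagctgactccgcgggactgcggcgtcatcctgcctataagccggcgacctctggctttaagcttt
Lamp1: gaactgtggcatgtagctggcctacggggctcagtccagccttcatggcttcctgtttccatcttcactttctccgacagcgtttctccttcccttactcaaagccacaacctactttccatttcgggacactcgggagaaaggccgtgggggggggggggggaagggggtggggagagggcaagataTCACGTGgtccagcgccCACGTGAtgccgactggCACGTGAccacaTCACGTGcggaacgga
Glb1: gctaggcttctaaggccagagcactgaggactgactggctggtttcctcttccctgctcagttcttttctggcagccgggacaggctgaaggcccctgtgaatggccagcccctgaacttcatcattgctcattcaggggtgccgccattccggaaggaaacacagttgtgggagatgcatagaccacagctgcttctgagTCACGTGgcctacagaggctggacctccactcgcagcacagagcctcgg
Ctss: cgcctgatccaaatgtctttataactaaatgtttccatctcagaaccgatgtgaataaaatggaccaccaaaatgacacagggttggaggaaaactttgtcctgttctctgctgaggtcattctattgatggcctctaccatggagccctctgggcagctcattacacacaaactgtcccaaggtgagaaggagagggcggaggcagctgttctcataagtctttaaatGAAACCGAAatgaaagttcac
Grn: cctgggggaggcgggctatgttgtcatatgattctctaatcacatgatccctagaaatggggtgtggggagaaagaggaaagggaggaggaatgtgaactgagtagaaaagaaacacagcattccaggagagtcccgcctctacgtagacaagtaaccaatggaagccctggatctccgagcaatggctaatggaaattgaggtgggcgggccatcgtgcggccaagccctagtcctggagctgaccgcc

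In Gla the 8-letter palindrome TCACGTGA occurs at -228 and -195 from the start site, which gives 4 matches of the 7-letter word when both strands are counted. Ctsd holds the palindrome once, at -99, and a further match at -245. Lamp1 has 4 separate matches within 62 bases of its start site, at -62, -45, -28 and -16, and Glb1 has 1 at -49. The interferon element core in Ctss lies at -21, and that motif was searched only after the Ctss sequence had been seen. It was in 4 of 40 genes (10.0%), Ctss, Ppt1, Lamp1 and Cln3, against 9.76% of all genes, a share near the background. Grn, which rose more than Lamp1 by ratio (5.48 against 3.20), holds none of the words searched.

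**Figure D4:**
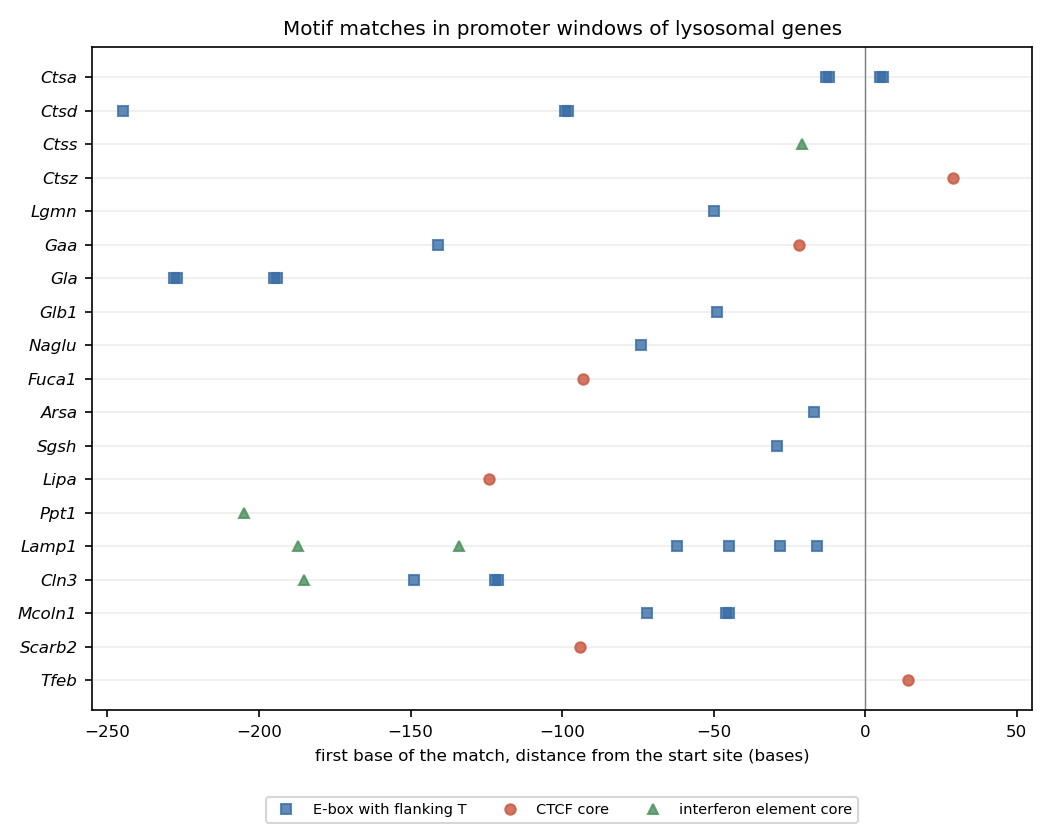
Position of motif matches in the promoter windows of lysosomal genes with at least 1 match, as the first base of the match relative to the start site (x axis, bases). Squares are the E-box with a flanking T, circles the CTCF core and triangles the interferon element core, with both strands counted, so that a palindrome gives 2 adjoining squares. Lamp1 has 4 squares within 62 bases of its start site, and Lgmn, Gaa and Naglu, which were called lower on FPKM as deposited, also carry a square.

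Markers of other cells moved with the groups beside these results. Of 12 macrophage markers 2 reached 1 FPKM in the controls and 3 in shCTCF, with a sum of 61.4 to 63.2 FPKM in the controls and 75.2 to 96.0 FPKM in shCTCF, most of it Adgre1, which rose from 56.7 ± 0.661 to 73.7 ± 10.4 FPKM. Lyz2 rose from 0.0274 ± 0.0475 to 3.29 ± 0.731 FPKM, C1qa and C1qb were listed at 0 in every sample, and Csf1r was under 1 FPKM. Of 15 fibroblast markers 6 reached 1 FPKM in each group, and their sum was 1110 to 1153 FPKM in the controls and 6503 to 6689 FPKM in shCTCF, nearly all of it Vim, which is not restricted to fibroblasts, while Col3a1 and Lum were listed at 0 and Col1a1 and Col1a2 were under 1 FPKM. Of the other fibroblast markers Col6a1 rose from 0.144 ± 0.0488 to 15.3 ± 0.38 FPKM, S100a4, Pdgfra and Thy1 also rose, and Fn1, Dcn and Pdgfrb fell, each of these from at most 6.09 FPKM. Among the pan-leukocyte markers Laptm5, itself a lysosomal membrane protein, rose from 181 ± 8.25 to 458 ± 10.0 FPKM, Cd53 and Fcer1g rose, Coro1a fell from 244 ± 25.8 to 113 ± 5.20 FPKM (SD, n = 3), and Ptprc, Cd52 and Tyrobp were not called. Of the mast cell markers Cpa3, a granule protease, fell from 281 ± 56.7 to 88.0 ± 13.1 FPKM. Hdc, the histamine-producing enzyme, rose from 4.25 ± 0.219 to 87.2 ± 7.58 FPKM, and Kit from 575 ± 35.8 to 787 ± 14.4 FPKM. Cma1 and Tpsab1 also rose, both low in the controls, and Gata2 was not called. The part of these cell type markers in the change of lysosomal genes was not tested.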

How the data were processed

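RNA-seq was measured in 6 samples, 3 control and 3 shCTCF. The authors trimmed the reads of stranded mRNA libraries and aligned them to mm9 with HISAT2 (given as version 4.8.2). The deposited counts were made with featureCounts 1.6.2 per the file headers, as raw fragments per RefSeq accession, without strand, and the deposited FPKM were calculated by the authors with Cufflinks 2.2.1. Accessions were given symbols through a RefSeq table of GRCm38.p6 (41186 of 41388 in the count table, 41685 of 41876 rows in the FPKM table) and values were summed per symbol. Unmatched accessions held at most 0.603% of counts. FPKM were tested with limma 3.58.1 (trend) on log2(FPKM + 1) where the mean over samples reached 1 FPKM, and counts with the quasi-likelihood test of edgeR 4.0.16 (TMM, filterByExpr), in R 4.3.3, two-sided, with Benjamini-Hochberg adjustment over all genes tested and a threshold of 0.05. An exact permutation test of 3 against 3 samples cannot go below p = 0.1 and was not used for calls. A fold change on the log2(FPKM + 1) scale understates the change of low genes, so ratios of group means are given beside it. Both fits were tested on simulated data. Values per sample are given for genes called with a ratio of at least 2 or at most 0.5 and groups apart, the 5 most abundant in controls, Tfeb, Lamp1 and Lamp2. Of the other lists, the called genes with the highest and lowest ratio are named, and any further gene named was chosen after its values were seen. The 45 genes and the lists were chosen with earlier results of these data known. Alternatives were other pseudocounts, filters, scalings, DESeq2 1.42.0, a replicate block and leaving out each sample. Promoter sequences are from RefSeq (GRCm38.p6). Coordinates of genes are those of mm9, counted from 1.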

Additional observations from a re-analysis of the deposited data

How the results depend on the processing

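The number of lysosomal genes called, the number past 2-fold, the calls on counts, the calls among the other lysosome genes and the fall of Ctcf kept their direction and their size within 1.5 times under every alternative run. Leaving out each sample in turn gave 34 to 37 calls on FPKM in place of 38, 25 to 27 on counts in place of 27, 19 to 22 past 2-fold in place of 21, 88 to 101 among the other lysosome genes in place of 92, and a log2 fold change of Ctcf between -5.16 and -5.08. The median log2 fold change of the lysosomal genes, 0.86, was 1.01 and 1.02 with pseudocounts of 0.1 and 0.01, 0.81 without a filter, 0.97 with a mean of at least 5 FPKM, 1.02 with samples scaled to the same median, 1.02 with quantile normalization, and 0.85 to 0.91 when a sample was left out. DESeq2 called 27 genes on counts, as edgeR did. Of single genes, Manba on FPKM ranged from -0.0275 (without control replicate 2) to 0.118 on the log2 scale when a sample was left out, called in none. The number of lower calls was least stable: 5 on FPKM became 2 after scaling to the same median or after quantile normalization and 3 without shCTCF replicate 1 or 3, and 1 on counts became 4 on library size only. Same-numbered samples did not deviate together (correlations of -0.04 to 0.04), so the numbers were taken as names. With the replicate block, 36 genes were called on FPKM and 26 on counts, 21 were past 2-fold, 95 other lysosome genes were called, the median was 0.86, and Ctcf fell by 5.12 on the log2 scale. The cause of these differences was not tested. Control replicate 2, with 1686052 counts, limits genes with few counts, such as Cln3 and Tfeb. Its FPKM also lay apart on some abundant genes, such as Cd53 (31.1 against 77.1 and 78.6 in the other controls). On others, such as Ctsb (30.8 against 28.6 and 29.1), they did not. Over all genes, 7919 were called on FPKM without control replicate 2, against 6925 and 6870 without control replicate 1 or 3.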
